A study of Mus musculus and unidentified plasmid with 60 samples.

Results

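Npas4 and Arc are genes that neurons switch on within minutes to hours of electrical activity, and the sites bound by a dominant-negative RFX protein around them were compared between depolarized and silenced neurons. The members were the regions of 3 deposited ChIP-seq lists that overlapped a window drawn around either gene. The Npas4 window ran from 4960000 to 5015000 on chromosome 19 (55 kb) and the Arc window from 74475000 to 74525000 on chromosome 15 (50 kb), both in mouse build mm9. They held 40 regions of the 295409 in the lists, 18 in the Npas4 window and 22 in the Arc window.

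The neurons were cultured from the cortex of E16 CD-1 mouse embryos. A lentivirus carrying the RFX dominant negative (RFX-DN) was added on DIV 2, counted in days in vitro. The neurons were quieted overnight from DIV 6 with tetrodotoxin and DL-2-amino-5-phosphonopentanoic acid, which block sodium channels and NMDA receptors. On DIV 7, 1 group was depolarized with 55 mM KCl for 1 h and the other was taken at 0 h, and chromatin was precipitated with an anti-MYC antibody. A further group, titled WT, has no treatment in its labels, and whether its neurons carried RFX-DN is not clear from them. Each list combined 2 libraries, and nothing in the labels says that these came from separate cultures. The 1 h list held 122135 regions, the 0 h list 173231 and the WT list 43. Each region carried a peak centre in 1 or both of 2 replicate columns, c1 and c2. Numbers of reads were not part of the lists, so library depth is unknown and a region that is not listed may have been bound below the level of detection.

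NPAS4 is a transcription factor of the bHLH-PAS family that is made almost exclusively in neurons after calcium entry and controls genes that shape inhibitory synapses. ARC is a protein of the synapse that promotes removal of AMPA receptors, its RNA travels to dendrites, and the protein can assemble into capsid-like shells. Both genes respond to depolarization through their promoters and through enhancers that lie upstream, where factors such as CREB, SRF and MEF2 act. RFX proteins are winged-helix transcription factors that bind X-box sequences, and a dominant-negative form competes with them. Antisera to the tag report where the introduced protein sat, not the activity of either gene.

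RefSeq (GRCm38.p6) places Npas4 between the coding genes Mrpl11 and Slc29a2, and Arc between Mroh4 and Jrk. Npas4 lies on the minus strand in that annotation, and Arc is also transcribed towards lower coordinates, so the 5′ flank of both genes lies on the side of higher coordinates. No gene boundary was converted to mm9. A region with its midpoint within 5 kb of the middle of a window was therefore counted as near the gene, those further out at higher coordinates as on the upstream side, and the others as on the downstream side. The RefSeq span, all transcripts included, is 19087 bases for Npas4 and 3490 bases for Arc. The Npas4 span is longer than the band near the gene, so these names give a side of the window only, and a region on either side may lie within the annotated gene. Whether a region lay in an exon, an intron or a promoter was not determined.

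The promoter of Npas4 is shown because it is among the elements that answer depolarization and because it was searched for RFX and CREB motifs. It is the RefSeq sequence (GRCm38.p6, chromosome 19, minus strand) from 250 bases before the annotated start to 50 bases after it, with the CRE core in capitals on either strand. Arc was not matched in the promoter table.

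Npas4: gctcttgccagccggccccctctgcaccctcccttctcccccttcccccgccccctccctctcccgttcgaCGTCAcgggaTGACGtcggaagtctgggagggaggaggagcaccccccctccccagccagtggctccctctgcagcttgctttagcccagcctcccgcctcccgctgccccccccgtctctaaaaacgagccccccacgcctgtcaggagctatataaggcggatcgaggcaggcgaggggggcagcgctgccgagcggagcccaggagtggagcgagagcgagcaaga

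The CRE core TGACG, part of the element bound by CREB, occurred 2 times in these 300 bases, in opposite orientations, with its leftmost base 179 and 169 bases before the annotated start. At least 1 copy was held by 20.8% of the 32851 promoters in the table. The full CRE, TGACGTCA, was not among these letters and was held by 1.79% of all promoters. One arm of the X-box, GTTGCC, was not found on either strand and was held by 12.5% of promoters. The AP-1 site TGANTCA (7.81% of promoters) and the CArG box bound by SRF (1.63%) were not found either. The sequence belongs to another build than the lists, so no listed region was assigned to it.

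Around Npas4, 1 h of KCl was accompanied by regions that were not listed in silenced neurons. The 1 h list held 10 regions in the window and the 0 h list held 8. Of the 10 regions at 1 h, 3 met no region at 0 h, where 6.69% of all 1 h regions met none. The other 7 overlapped a 0 h region, a share of 70.0% with a 95% exact Clopper-Pearson interval of 34.8% to 93.3%, which covers counting error only and held the 93.3% of the whole 1 h list at its upper end. With 1 replicate column left out, 2 to 4 regions met none at 0 h. The 3 regions lay side by side near the gene, on the lower-coordinate side of the middle. The interval takes regions as independent, which neighbours need not be, so here and below it is a description and not a test.

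The leftmost of the 3 ran from 4983130 to 4983370 on chromosome 19, 240 bases, with centres at 4983200 in c1 and 4983270 in c2. Its neighbour ran from 4983780 to 4983990, 210 bases, with both columns centred at 4983860. The rightmost ran from 4985390 to 4985430, 40 bases, and had a centre only in c2, at 4985410. The first and second were thus supported by both columns and stood 410 bases apart, whereas the rightmost was a narrow call of 1 column.

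The 3 regions spanned 2300 bases within a stretch of 10380 bases, from 4978000 to 4988380, in which the 0 h list held no region. The nearest 0 h regions ended 5130 bases below the leftmost and started 2950 bases above the rightmost. The call that they were absent at 0 h therefore did not rest on a 0 h region that narrowly failed to touch them.

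Regions supported by both columns at 1 h and absent at 0 h were rare in the whole list, with 291 of 66910, or 0.435%. The Npas4 window held 2 of these 291. In a fixed grid of 55 kb windows, 5 of the 42171 windows with any region (0.0119%) held at least 2 of them, and 80 windows (0.190%) held at least 3 regions of any support listed at 1 h and absent at 0 h. These windows were not matched for number of regions. Their median was 2 at 1 h, against 10 in the Npas4 window, so a crowded window had more room for such regions. The grid also took in the Npas4 regions themselves. Over all chromosomes, 2 of the 291 had another of the 291 within 1000 bases, so the neighbours at Npas4 were the sole such pair. Within 5000 bases, 6 of the 291 had another.

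Counting all support, 4 separate sets of 3 neighbouring regions seen at 1 h alone fell within a span of 2300 bases in the whole list, the Npas4 set included. These comparisons of spacing were chosen after the regions were seen. Both regions with 2 centres were also wide among the 291, whose median width was 150 bases. The leftmost was wider than 91.4% of these and its neighbour wider than 83.2%. Within the whole 1 h list their widths were ordinary, with the leftmost wider than 56.9% and its neighbour wider than 48.3% of regions.

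**Figure D1:**
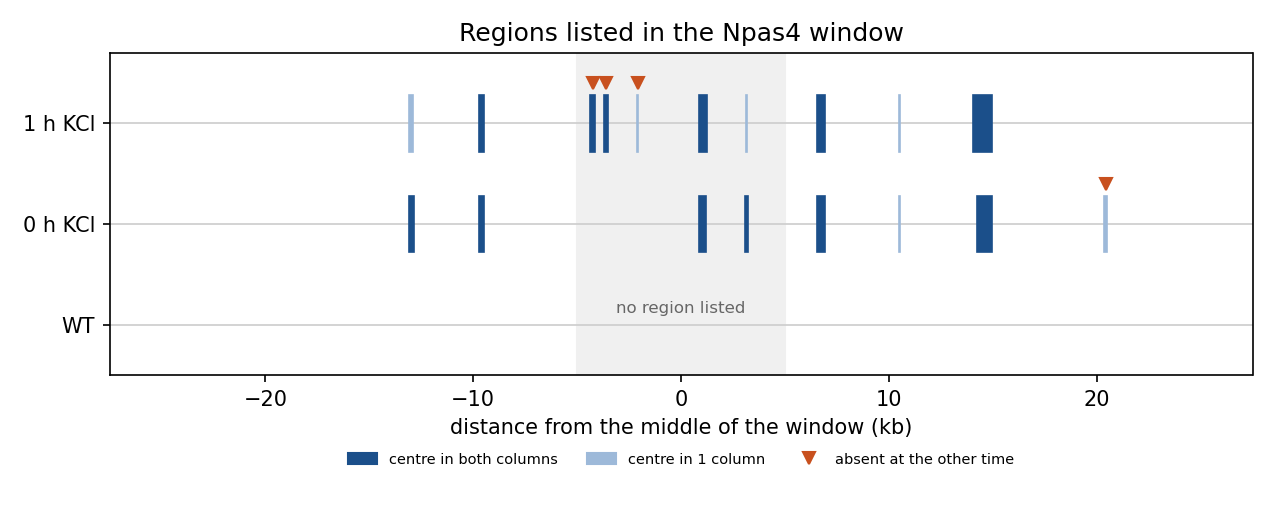
Regions of the 1 h, 0 h and WT lists in the Npas4 window, drawn to scale against the distance of each from the middle of the window (kb); dark bars have centres in both columns, light bars in 1 column, triangles mark regions absent at the other time, and the grey band covers 5 kb either side of the middle. The 3 regions marked at 1 h lie side by side in the band, where the 0 h list has 2 regions, and the WT list has none.

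All but 1 of the other Npas4 regions were held in common. Near the gene, the 0 h list had 2 regions and the 1 h list had the counterparts of both besides the 3 described above. The region from 4988360 to 4988740 at 1 h was 380 bases wide and its counterpart at 0 h, from 4988380 to 4988720, was 340 bases wide. All 4 of its centres lay at 4988540 or 4988550. At the next site the 1 h region, 4990630 to 4990690, was 60 bases wide with a single centre in c1, at 4990660. Its 0 h counterpart, 4990560 to 4990720, was 160 bases wide with centres at 4990680 in c1 and 4990670 in c2. This was the sole Npas4 pair that was narrower at 1 h.

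On the upstream side of Npas4 the lists shared 3 sites. The widest region of either gene was the one from 5001540 to 5002450 at 1 h, 910 bases, against 5001740 to 5002460 at 0 h, 720 bases. It was wider than 99.5% of the 1 h list and wider than 98.1% of the 0 h list. Its upper end differed by 10 bases and its lower end by 200 bases, so the extra width at 1 h lay on the side of lower coordinates, while its centres, at 5001960 in both columns at 1 h and at 5001970 and 5001960 at 0 h, differed by at most 10 bases.

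A site closer to the gene, 4994040 to 4994440 at 1 h and 4994040 to 4994430 at 0 h, had all 4 centres at 4994240 and widths of 400 bases at 1 h and 390 bases at 0 h. Between these lay a narrow region with a c1 centre alone at both times, with a width of 70 bases at 1 h, against 50 bases at 0 h. The region at the highest coordinates, 5007870 to 5008020, was listed at 0 h with a single c1 centre and was the sole 0 h region of the window with no counterpart at 1 h.

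On the downstream side of Npas4 both lists held 2 regions. The region from 4977790 to 4978020 at 1 h had centres in both columns and was 230 bases wide, against 210 bases at 0 h. The region from 4974390 to 4974600 at 1 h was 210 bases wide, against 200 bases at 0 h, and had no c2 centre at 1 h.

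Of the 8 Npas4 regions at 0 h, 7 were met at 1 h (87.5%, exact interval 47.3% to 99.7%), and 1 was absent, against 34.6% absent in the whole 0 h list. This interval held the share of the whole 0 h list met at 1 h, 65.4%. Without c1 of the 1 h list, 4 of the 8 were met. All 6 with centres in both columns were met, where 15.1% of such regions were absent at 1 h in the whole list. Support by both columns was found for 6 of 10 regions at 1 h (54.8% in the whole list) and for 6 of 8 at 0 h (61.0%).

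Around Arc, the 1 h list held no region that was absent from the 0 h list. It held 10 regions and the 0 h list held 12. All 10 at 1 h overlapped a 0 h region (exact interval 69.2% to 100%), where 93.3% of all 1 h regions did. Of the 12 at 0 h, 10 were met at 1 h (83.3%, exact interval 51.6% to 97.9%) and 2 were absent. The share of the whole 0 h list met at 1 h was 65.4%, and both Arc intervals held the share of the whole list, as did both Npas4 intervals. Without c1 of the 1 h list, 6 of the 12 were met, and without c1 of the 0 h list, 3 of the 10 regions at 1 h met no 0 h region.

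Near Arc, all 4 sites were listed at both times. At the site centred at 74502500 in all 4 columns, the region ran from 74502390 to 74502660 at 1 h (270 bases) and from 74502350 to 74502660 at 0 h (310 bases). The region from 74497910 to 74498090 at 1 h was 180 bases wide, against 250 bases at 0 h, and also had centres in both columns at both times. The remaining sites near the gene had a c1 centre alone in both lists. At 74501030 to 74501210 the width was 180 bases at 1 h and 200 bases at 0 h. At 74503910 to 74504100 it was 190 bases at 1 h and 130 bases at 0 h, which made it the sole Arc region that was wider at 1 h.

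On the upstream side of Arc, the 1 h list held 3 regions and the 0 h list held 5. All 3 at 1 h had centres in both columns. The region from 74507230 to 74507370 had a width of 140 bases at 1 h, against 170 bases at 0 h. The region from 74511760 to 74511930 had a width of 170 bases at 1 h, against 180 bases at 0 h. The region from 74518050 to 74518360, 18.2 kb from the middle, had a width of 310 bases at 1 h, against 350 bases at 0 h.

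The regions that were missing at 1 h flanked this last site. From 74516990 to 74517180 the 0 h list held a region of 190 bases with centres at 74517030 in c1 and 74517040 in c2, which lay 870 bases from the nearest 1 h region. From 74518840 to 74518880 it held a region of 40 bases with a centre in c1 alone, 480 bases from the nearest 1 h region. Of the 8 Arc regions that both columns supported at 0 h, 1 was thus absent at 1 h, where 15.1% of such regions were absent in the whole list.

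On the downstream side of Arc, 3 sites were listed at both times. The region from 74490470 to 74490770 at 1 h had centres in both columns and was 300 bases wide, against 320 bases at 0 h. The region from 74488140 to 74488220 had a width of 80 bases at 1 h, against 190 bases at 0 h, with a c1 centre alone at both times. The region from 74482800 to 74483060 was 260 bases wide at both times and had no c2 centre at 1 h.

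**Figure D2:**
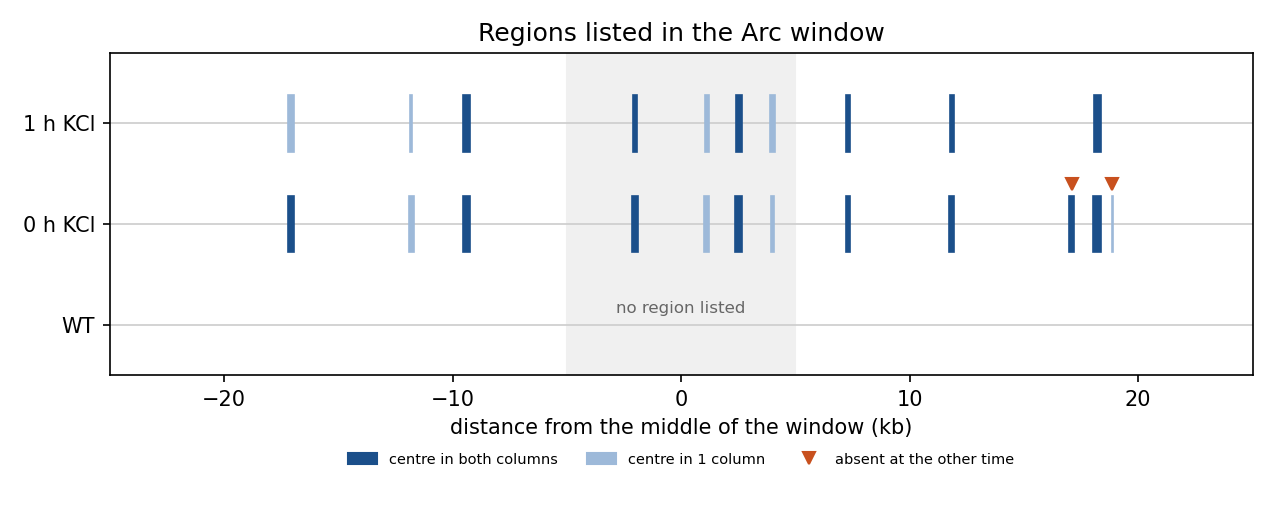
Regions of the 1 h, 0 h and WT lists in the Arc window, drawn to scale against distance from the middle of the window (kb), with the shading and marks of the Npas4 map. All 10 regions at 1 h have a counterpart at 0 h, and both regions marked at 0 h lie beside the site 18.2 kb from the middle; the WT list has none.

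Where a site was listed at both times, width mostly differed in opposite directions at the 2 genes. In the Npas4 window 6 of 7 pairs were wider at 1 h and 1 was narrower, with a median difference, 1 h minus 0 h, of 20 bases. In the Arc window 1 of 10 was wider, 1 was equal and 8 were narrower, with a median difference of -25 bases. Among the 112001 pairs of the whole lists in which each region met a single region of the other list, 20.4% were wider at 1 h and 71.0% narrower, with a median difference of -30 bases.

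The contrast was complete among sites with centres in both columns at both times. All 4 such Npas4 pairs were wider at 1 h, by 10 to 190 bases, and all 6 such Arc pairs were narrower, by amounts from 10 to 70 bases. Besides pairs that went with the contrast, this filter left out every exception to it. These were the narrower Npas4 pair (60 bases at 1 h, 160 at 0 h) and the wider Arc pair (190 bases at 1 h, 130 at 0 h). The Arc pair of equal width (260 bases) was left out too, and each of these pairs had 1 column at 1 h. In the whole lists, 17.5% of the 63947 pairs with both columns at both times were wider at 1 h and 71.2% narrower. Narrowing was thus the common course and the Arc sites followed it. In the grid of 55 kb windows, 4 of the 2514 windows with 4 such pairs (0.159%) had all of them wider at 1 h. In a grid of 50 kb windows, 60 of the 428 with 6 such pairs (14.0%) had all of them narrower. The direction and the number of pairs counted in each grid were taken from the members after they were seen. Both grids also took in the regions studied here, so these shares are a description and not a test. A combined region has a single width, so these differences carry no replicate error and were not tested. Steps of 10 bases are the spacing at which the starts and ends of these members were given.

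**Figure D3:**
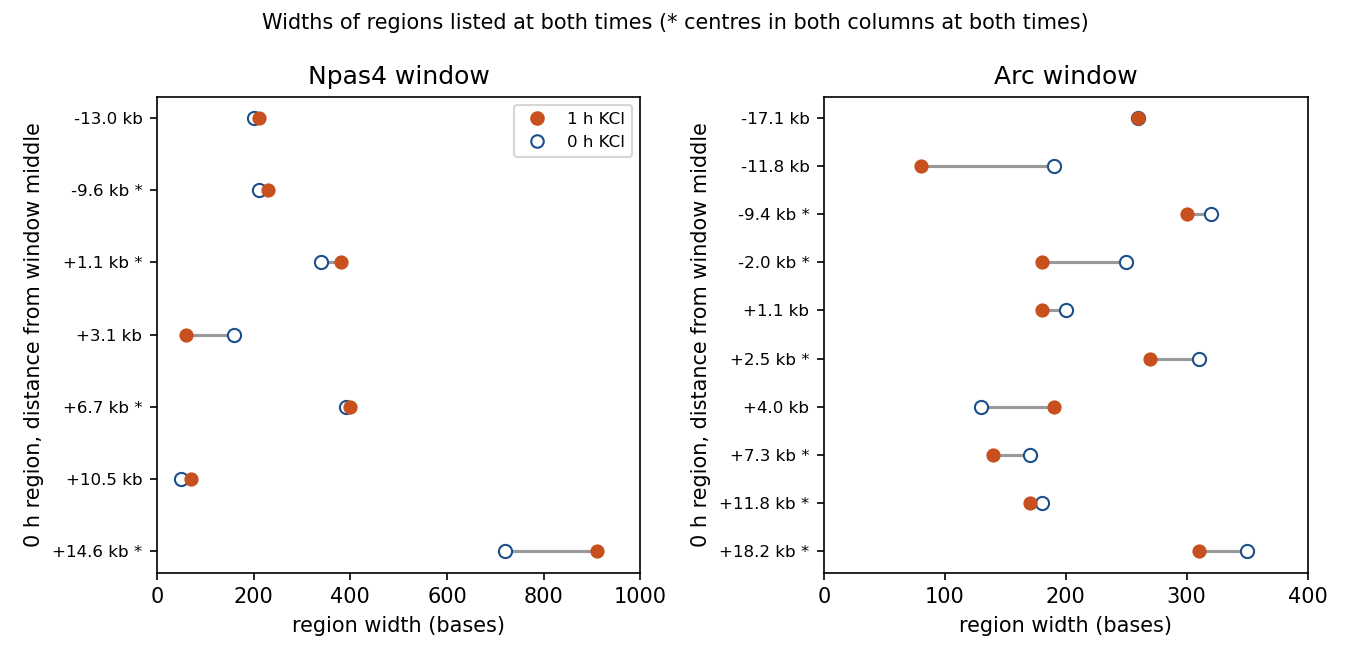
Widths in bases of the regions listed at both times, 1 h filled and 0 h open, by distance of the 0 h region from the middle of the window; asterisks mark sites with centres in both columns at both times. The 4 asterisked Npas4 sites are wider at 1 h and the 6 asterisked Arc sites are narrower.

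Among sites listed at both times, positions hardly differed. These sites were paired by overlap, which itself limits how far apart centres can lie, and no value over the whole lists was computed. At all 17 sites listed at both times, some centre at 1 h lay within 15 bases of a centre at 0 h. The farthest centres of a pair lay at most 60 bases apart, at the Arc site from 74511760 to 74511930. Lack of a c2 centre at 1 h was seen at 2 of the 6 Npas4 sites and 1 of the 7 Arc sites that had both columns at 0 h and were still listed. In the whole lists 28.0% of the 88798 such sites had 1 column at 1 h.

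Both windows were crowded for their length. Grid windows of 55 kb with any region held a median of 2 regions at 1 h and 4 at 0 h, and those of 50 kb a median of 2 at 1 h and 3 at 0 h. At least 10 regions at 1 h were found in 0.711% of the 55 kb windows and 0.420% of the 50 kb windows. At 0 h, at least 8 regions were found in 11.6% of the 55 kb windows and at least 12 in 0.560% of the 50 kb windows. With all regions counted, the Arc window was thus dense at both times, whereas the Npas4 window stood out more at 1 h than at 0 h. The larger count at 1 h than at 0 h in the Npas4 window was not seen under either of 2 stricter limits. With both columns required, the Npas4 window held 6 regions at 1 h and 6 at 0 h. The whole lists held 66910 such regions at 1 h and 105643 at 0 h. With regions of at least 100 bases it held 7 at 1 h and 7 at 0 h. Grid windows were not counted under these limits, so whether the window still stood out under them was not determined.

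The grid windows also show how a count at 0 h related to the count at 1 h. Of the 1979 windows of 55 kb with 8 regions at 0 h, as at Npas4, the median held 6 at 1 h and 13 (0.657%) held at least 10. Of the 130 windows of 50 kb with 12 regions at 0 h, as at Arc, the median held 8 at 1 h and 35 (26.9%) held at least 10. The grid was laid without regard to genes and took in the regions studied here, and the 2 windows studied here were drawn around genes.

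**Figure D4:**
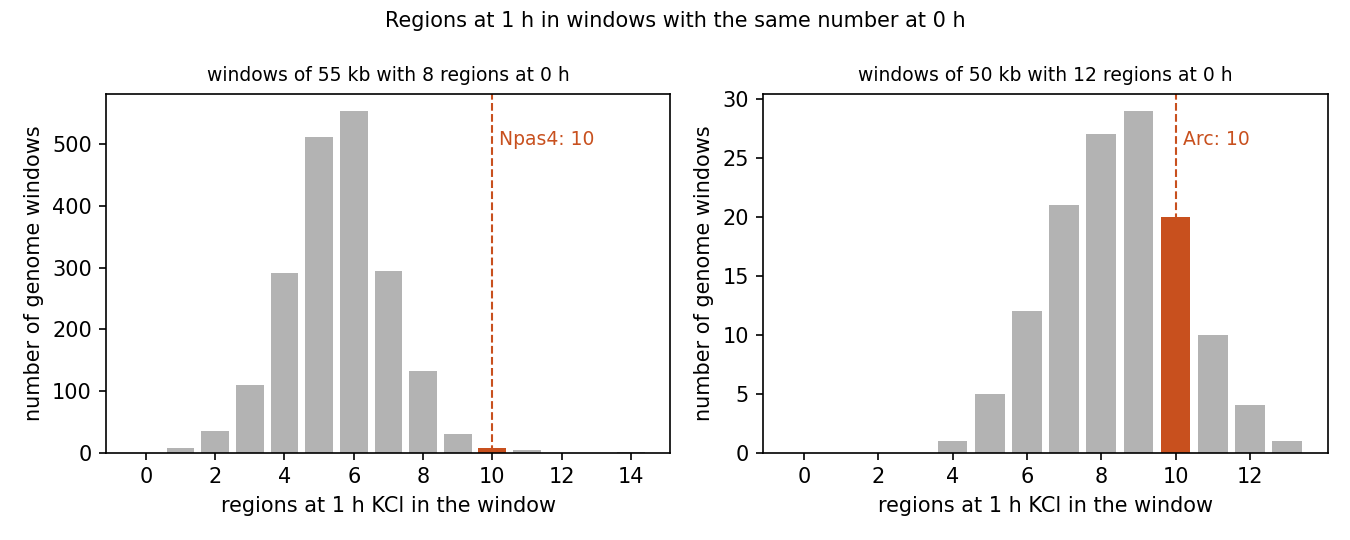
Number of genome windows by their count of regions at 1 h, among 55 kb windows with 8 regions at 0 h (left) and 50 kb windows with 12 regions at 0 h (right); the dashed lines mark Npas4 and Arc. Both genes have 10 regions at 1 h, at the sparse upper end for Npas4 and within the bulk for Arc.

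The replicate columns bear on whether such counts exceed the spread between libraries. In the Npas4 window c1 and c2 held 9 and 7 centres at 1 h, against 8 and 6 at 0 h. The means were 8.0 ± 1.41 at 1 h and 7.0 ± 1.41 at 0 h (SD, n = 2 columns each), the groups overlapped, and the two-sided exact permutation p was 0.667. In the Arc window c1 and c2 held 10 and 6 centres at 1 h, against 12 and 8 at 0 h. The means were 8.0 ± 2.83 at 1 h and 10 ± 2.83 at 0 h (SD, n = 2 columns each), the groups again overlapped, and the exact permutation p was 0.667. With 2 columns against 2 the smallest p is 0.333, so no difference could pass 0.05. Leaving out c1 at 1 h or c2 at 0 h brought the Npas4 difference to 0, and leaving out c2 at 1 h or c1 at 0 h did so at Arc. These differences set the single column left against the mean of both columns at the other time. Since c1 held more centres than c2 in both lists and both windows, they also carry that imbalance.

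The columns of the whole lists differed in their totals, with 114659 and 74386 centres at 1 h against 155961 and 122913 at 0 h, a ratio of means of 0.678. Per 100000 centres of the same column, the Npas4 window held 7.85 and 9.41 centres at 1 h, against 5.13 and 4.88 at 0 h. On that scale the Arc window held 8.72 and 8.07 centres at 1 h, against 7.69 and 6.51 at 0 h. The 1 h columns were then higher than both 0 h columns in either window, by 1.72 times at Npas4 and 1.18 times at Arc, with an exact permutation p of 0.333 for both, the smallest possible. The Arc difference thus changed direction with the scale, since its centres were fewer at 1 h but made up a larger part of a shorter list. The part of library depth in these differences was not tested.

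**Figure D5:**
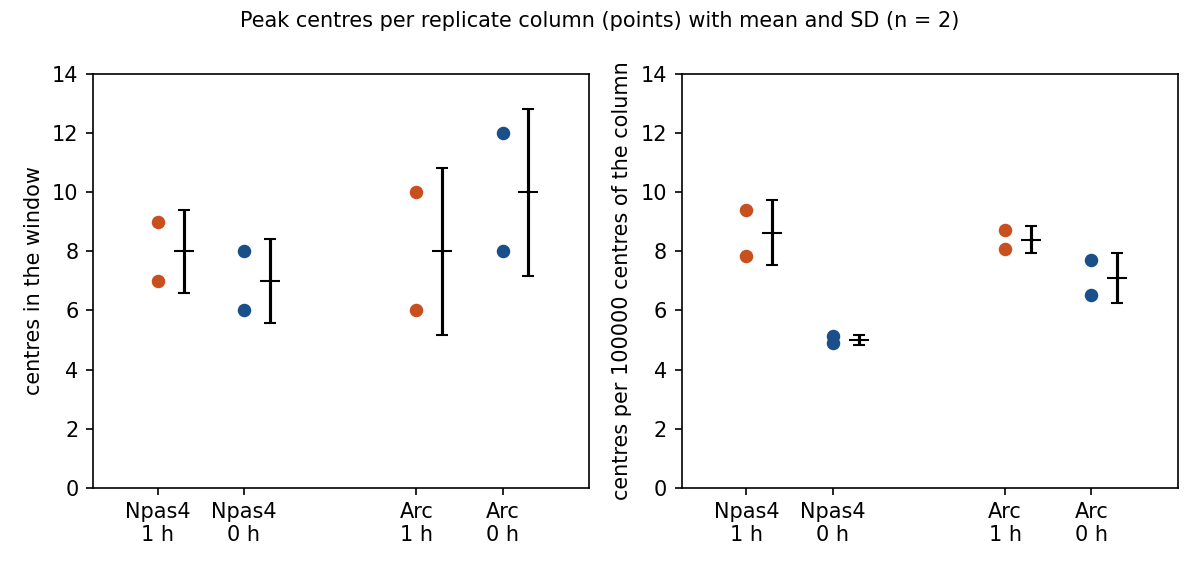
Peak centres per replicate column in the Npas4 and Arc windows, as counts (left) and per 100000 centres of the same column (right); points are the 2 columns of each list and bars show the mean and SD. Counts overlap between 1 h and 0 h at both genes, and scaled values at 1 h lie above those at 0 h.

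The WT list held no region in either window. It had no region on chromosome 15 at all, and its nearest region to the Npas4 window on chromosome 19 lay 22.8 Mb away, from 27842980 to 27843200. With 43 regions in all, an absence from the WT list says little about a single locus.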

How the data were processed

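ChIP-seq with an anti-MYC antibody was used for 6 of the 60 samples, 2 libraries for each of 3 lists. RFX-DN was mapped at 0 h and 1 h, and whether the WT neurons carried it is not clear from the labels. The 52 reporter and plasmid samples and 2 input libraries were not analysed here. Per the submitters' processing notes, the reads were handled with Bowtie and mm9. Which program called the peaks, at what threshold, and how replicates were merged is not stated in these sources. The authors deposited each list as regions with a chromosome, a start, an end and columns c1 and c2, which give a position within the region or -1 for none. These were read as peak centres of 2 unnamed libraries. Coordinates are printed as listed, and their base, 0 or 1, is not stated.

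Regions overlapping a window by 1 base were members, and all are described, as the naming rule asked. Regions of 2 lists met when they shared at least 1 base. Windows of equal length were laid end to end over chromosomes 1 to 20 of the lists, with regions placed by midpoint. Overlap code was tested on simulated lists. Computations used Python 3.11.15, numpy 2.4.6 and scipy 1.17.1. The members and comparisons were chosen with earlier results of these data known. Counts at other activity genes were not made, since no mm9 annotation was used. RefSeq (GRCm38.p6) gave gene order, the strand and the promoter.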

Additional observations from a re-analysis of the deposited data

How the results depend on the processing

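No paired analysis was possible because columns c1 and c2 name no library, so no replicate block could be fitted. Of 100 alternatives over 12 results, 85 left the result within the limits set for it. These limits were wide, so the 85 is no measure of stability. A share was within them anywhere in its exact interval, as when the Npas4 share fell from 87.5% to 50%. A count of 7 in place of 10 was also within them, and a difference had only to keep its sign. Some alternatives, such as the midpoint inside the window, returned the same value. The alternatives for regions seen at 1 h and absent at 0 h were chosen after seeing the data. With both columns required, 6 regions were left at 1 h in each window, against 6 at 0 h at Npas4 and 8 at 0 h at Arc. Of the Npas4 regions at 0 h with both columns, 100% were met by any 1 h region and 66.7% by a 1 h region with both columns. Without 1 replicate column, regions at 1 h numbered 7 to 9 at Npas4 and 6 to 10 at Arc, the lowest without c1. With 1 column left out, from 50% to 100% of the 0 h regions at Npas4 and from 50% to 87.5% at Arc were met at 1 h, in both cases lowest without c1 of the 1 h list. The difference in centres per column, 1 h minus 0 h, was 0 to 2 at Npas4 and -4 to 0 at Arc with 1 column left out. It was 0 at Npas4 for regions of at least 100 bases. Per 100000 centres of the column it was 1.29 at Arc, against -2 as a count, which follows from the shorter 1 h columns. The number of Npas4 regions listed at 1 h and absent at 0 h was 2 to 4 under all 10 alternatives. At Arc it was 1 with overlap of at least 50% of both regions and 1 with the same number of widest regions in both lists. At Arc it was 0 to 3 with 1 column left out, highest without c1 of the 0 h list. Without depths, no detection limit could be set.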
